A study of Mus musculus with 6 samples.

Results

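The 10 genes described here encode the thrombospondins and a set of other matricellular and adhesive matrix proteins: Thbs1, Thbs2, Thbs3, Thbs4, Comp, Tnc, Postn, Tgfbi, Sparc and Fn1. They were taken by gene symbol from a deposited table of 55401 genes, in which each symbol had 1 row, and all 10 passed the filter on low counts. The libraries were poly(A) RNA of primary chondrocytes, cartilage cells grown in culture after isolation from mice, in 3 Nf2-knockout and 3 control libraries. Both groups carry the floxed Nf2 gene, which is deleted in the knockout libraries. The labels do not name the Cre recombinase, the strain or the age of the mice, and they do not say whether replicates came from separate animals or cultures. The p-values therefore speak of the spread among the libraries alone, and that spread may be technical. The treatment label of the knockout libraries names TCF21 overexpression, which their titles do not mention. The library names of both groups carry the mark D7, which the labels do not explain.

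Matricellular proteins are secreted into the extracellular matrix but serve less as its scaffold than as signals, because they bind cell surface receptors, growth factors, proteases and structural fibres. Thrombospondins fall into a trimeric class, Thbs1 and Thbs2, and a pentameric class, Thbs3, Thbs4 and Comp. The trimeric class binds the receptors CD36 and CD47, and Thbs1 can also release TGF-β from its latent complex. Comp, cartilage oligomeric matrix protein, binds collagens in cartilage and tendon. Fn1 encodes fibronectin, the ligand of integrin α5β1, and Thbs1 is among the genes that YAP and TEAD are known to drive when Hippo signalling, which merlin (the Nf2 protein) promotes, is low.

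Total counts per library ran from 50906043 to 63748798 in the 3 knockout libraries and from 55516143 to 61103617 in the 3 controls. Nf2 itself remained detectable, at 11.9, 13.7 and 13.4 FPKM in knockout replicates 1 to 3 and 16.1, 16.9 and 15.4 FPKM in control replicates 1 to 3. FPKM, as deposited, scales fragments to transcript length and library depth, so it can be compared between genes. Nf2 had a log2 fold change of −0.41 (SE 0.0866, edgeR adjusted p = 0.0305), and the call was lost in each of the 6 fits without 1 library (adjusted p from 0.0518 to 0.123). Fold changes here are log2 of knockout over control, from edgeR's quasi-likelihood test on the deposited counts, with p-values adjusted by the Benjamini-Hochberg method over all 18218 tested genes and a threshold of 0.05. Counts over the whole gene do not show which exons were deleted. Bulk RNA cannot tell fewer cells of a type from less RNA per cell.

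Thbs1 rose 2.81-fold in mean CPM, with every knockout library above every control, and it was the only 1 of the 10 genes that passed the test. The other 9 did not, so 1 of 10 was called higher and 0 lower, against 9.29% of all tested genes called in either direction, 4.11% called higher and 5.18% called lower. The fits that each left out 1 library called 3.33%, 6.29% and 3.96% of their genes without knockout replicates 1, 2 and 3, and 5.16%, 3.73% and 6.17% without control replicates 1, 2 and 3. A fit with the replicate number as a block called 5.07%, DESeq2 12.8% and limma on FPKM with no filter 3.92%. At an unadjusted p under 0.05 there were 2 of the 10, Thbs1 and Tgfbi, against 24.8% of all tested genes. The median log2 fold change was 0.03 over the 10 genes and −0.01 over all tested genes.

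**Figure D1:**
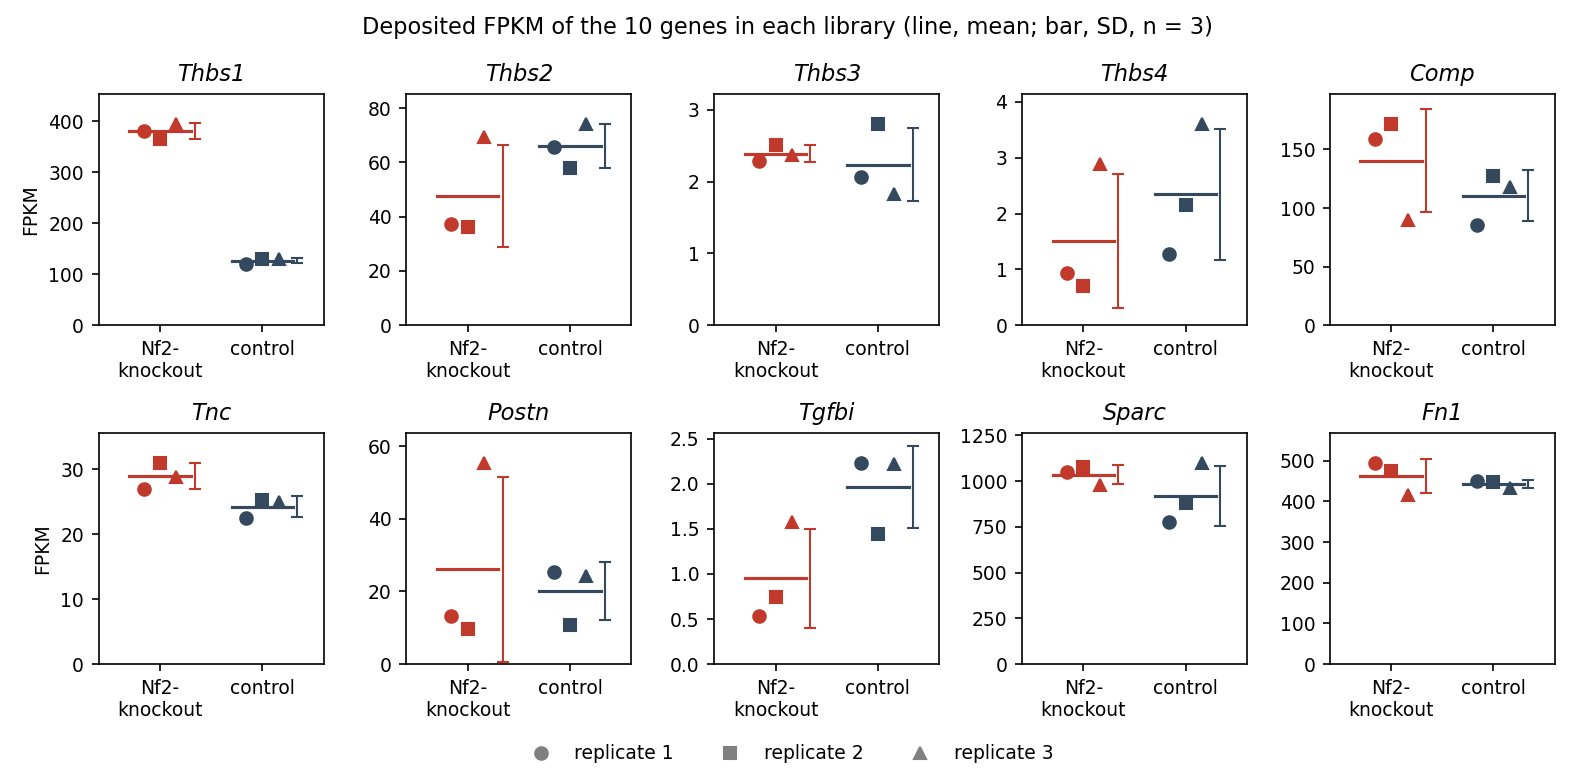
Deposited FPKM (y axis, linear, from 0) of each gene in the 3 Nf2-knockout libraries (red, left) and the 3 control libraries (dark, right), with the replicate given by the marker, the mean as a line and the SD as a bar (n = 3). The knockout values of Thbs1 lie between 365 and 395 FPKM, all above the highest control at 129 FPKM, while Thbs2, Thbs4, Postn, Tgfbi and Comp have 1 knockout library, replicate 3, away from the other 2.

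Thbs1 (ENSMUSG00000040152, chromosome 2, 118111876 to 118127133, plus strand, GRCm38) encodes thrombospondin 1, a trimeric glycoprotein that restrains angiogenesis and activates latent TGF-β. It stood at 382, 365 and 395 FPKM in knockout replicates 1 to 3, against 121, 129 and 129 FPKM in control replicates 1 to 3. Each knockout library was far above each control, and the libraries of a group lay close together. The ratio of the highest to the lowest CPM (counts scaled by TMM to a common library size) was 1.07 among knockout and 1.08 among control libraries. Mean CPM was 2481 ± 80.3 in knockout and 884 ± 37.5 in control libraries (SD, n = 3 each), a 2.81-fold difference. The log2 fold change was 1.49 (SE 0.0850, edgeR adjusted p = 0.00304), and over the 14 alternative fits it lay between 1.45 and 1.59 and passed the threshold each time. By p-value Thbs1 ranked 2 among the 18218 tested genes. By the gain in mean TMM-scaled CPM, 1597, it ranked 1 among them, and by the gain in mean FPKM, taken over all genes of the table, it ranked 14. Of the 96 tested genes with a mean of at least 1000 CPM over all libraries, 23 passed the test, 7 of them higher. The log2 fold change of Thbs1 was the highest of the 96. With a control mean of 884 CPM, Thbs1 met that limit only through its knockout libraries. Its place among the 96 is therefore not independent of its rise. Among all 749 genes that rose its fold change ranked 176, so many less abundant genes rose by a larger factor.

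Thbs2 (ENSMUSG00000023885, chromosome 17, 14665500 to 14694235, minus strand), the other trimeric thrombospondin and a regulator of collagen fibril assembly, did not pass the test. It stood at 37.4, 36.4 and 69.4 FPKM in knockout replicates 1 to 3, against 65.8, 57.9 and 74.3 FPKM in control replicates 1 to 3. Knockout replicates 1 and 2 were below every control, and replicate 3 lay within the control range. The log2 fold change was −0.57 (SE 0.252, edgeR adjusted p = 0.215). Without knockout replicate 3 it was −0.93 with an adjusted p = 0.0232, in a fit that called 3.96% of its 18766 genes.

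Within each library the ratio of Thbs1 to Thbs2 transcripts does not depend on scaling between libraries. It was 10.217, 10.045 and 5.697 in knockout replicates 1 to 3, against 1.837, 2.229 and 1.741 in control replicates 1 to 3, on the FPKM scale. The lowest knockout ratio was above the highest control ratio. The mean log2 ratio was 3.06 ± 0.480 in knockout and 0.94 ± 0.187 in control libraries (SD, n = 3 each), a difference of 2.12. The exact two-sided permutation test gave p = 0.1, the smallest that this test allows with 3 against 3 libraries, so it cannot pass 0.05. The ratio of Thbs1 to Fn1 was 0.771, 0.768 and 0.948 in knockout replicates 1 to 3, against 0.269, 0.288 and 0.299 in control replicates 1 to 3.

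Among the pentameric thrombospondins, Comp was abundant and Thbs3 and Thbs4 were scarce, and none of the 3 passed the test. Comp (ENSMUSG00000031849, chromosome 8, 70373558 to 70382066, plus strand) stood at 158.9, 171.9 and 89.9 FPKM in knockout replicates 1 to 3, against 85.8, 127.4 and 117.9 FPKM in control replicates 1 to 3. Knockout replicates 1 and 2 were above all controls, and in FPKM replicate 3 was below 2 of them. In TMM-scaled CPM replicate 3 was below every control (283, against 292 in the lowest control). The log2 fold change was 0.25 (SE 0.263, edgeR adjusted p = 0.627), and 0.50 without knockout replicate 3 (adjusted p = 0.191).

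Thbs4 (ENSMUSG00000021702, chromosome 13, 92751590 to 92794818, minus strand), a thrombospondin of tendon and muscle attachment, had 0.937, 0.697 and 2.89 FPKM in knockout replicates 1 to 3, against 1.28, 2.15 and 3.61 FPKM in control replicates 1 to 3. The groups overlapped, and the lowest 2 libraries were both knockouts. Its log2 fold change was −0.75 (SE 0.590, edgeR adjusted p = 0.498). It was −1.61 without knockout replicate 3 and −0.29 without control replicate 3, so single libraries moved it widely. Thbs3 (ENSMUSG00000028047, chromosome 3, 89215180 to 89226837, plus strand) had between 2.29 and 2.52 FPKM in knockout and between 1.84 and 2.81 FPKM in control libraries. The groups overlapped and the log2 fold change was −0.0022 (SE 0.178, edgeR adjusted p = 0.996). Its exons share 318 bases with those of Mtx1 on the opposite strand, a gene with 1755 to 2220 counts per library against 588 to 844 of Thbs3. The sources used here do not say whether reads were counted by strand, so the Thbs3 level is uncertain. Thbs1, Tnc and Fn1 overlap opposite-strand genes over 208, 176 and 292 exon bases, but those genes had at most 34, 62 and 23 counts in any library.

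Tnc (ENSMUSG00000028364, chromosome 4, minus strand) encodes tenascin C, a hexameric protein that is raised in developing cartilage and wounded tissue and loosens cell adhesion to fibronectin. It had 27.0, 31.0 and 28.9 FPKM in knockout replicates 1 to 3, against 22.47, 25.33 and 25.02 FPKM in control replicates 1 to 3. Every knockout value was above every control value, as it was, by a small margin, in CPM (226.6 in the lowest knockout library and 226.5 in the highest control). Besides Thbs1, Tnc was the only 1 of the 10 genes whose groups did not overlap in CPM, against 32.9% of all tested genes. The log2 fold change of 0.15 (SE 0.0923) did not pass (edgeR adjusted p = 0.364).

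Postn and Tgfbi encode periostin and the TGF-β-induced protein, secreted integrin ligands built from fasciclin domains, and both are known targets of TGF-β. Postn (ENSMUSG00000027750, chromosome 3, 54361109 to 54391037, plus strand) had 13.3, 9.66 and 55.4 FPKM in knockout replicates 1 to 3, against 25.3, 10.9 and 24.4 FPKM in control replicates 1 to 3. Its highest value and its lowest were both in knockout libraries. The log2 fold change was 0.26 (SE 0.657, edgeR adjusted p = 0.850), and −0.90 without knockout replicate 3 (adjusted p = 0.258), so its direction rested on that library.

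Tgfbi (ENSMUSG00000035493, chromosome 13, 56609523 to 56639562, plus strand) was the least abundant of the 10 genes in both groups. It had 0.535, 0.745 and 1.57 FPKM in knockout replicates 1 to 3, against 2.23, 1.44 and 2.22 FPKM in control replicates 1 to 3, from 115, 192 and 422 counts in knockout libraries and 574, 339 and 556 counts in controls. Knockout replicates 1 and 2 were below all controls, and replicate 3 overlapped control replicate 2. The log2 fold change was −1.15 (SE 0.405) with an unadjusted p = 0.0243 and an edgeR adjusted p = 0.132. It passed in DESeq2, which called 12.8% of its genes (−1.13, adjusted p = 0.0332), and without knockout replicate 3 (−1.70, adjusted p = 0.0400).

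Sparc and Fn1 were the most abundant of the 10 genes and differed little between groups. Sparc (ENSMUSG00000018593, chromosome 11, 55394500 to 55423183, minus strand), a collagen-binding protein also called osteonectin, had 1049, 1079 and 978 FPKM in knockout replicates 1 to 3, against 777, 881 and 1100.4 FPKM in control replicates 1 to 3. The highest value was in a control library, and the log2 fold change was 0.07 (SE 0.145, edgeR adjusted p = 0.821). Fn1 (ENSMUSG00000026193, chromosome 1, minus strand) had 495, 475 and 417 FPKM in knockout replicates 1 to 3, against 449, 448 and 432 FPKM in control replicates 1 to 3. The groups overlapped, and the log2 fold change was −0.04 (SE 0.105, edgeR adjusted p = 0.863). The sign differed between scalings, at −0.04 from counts and 0.06 from FPKM. Fn1 transcripts with different alternative exons could not be separated in counts of the whole gene.

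**Figure D2:**
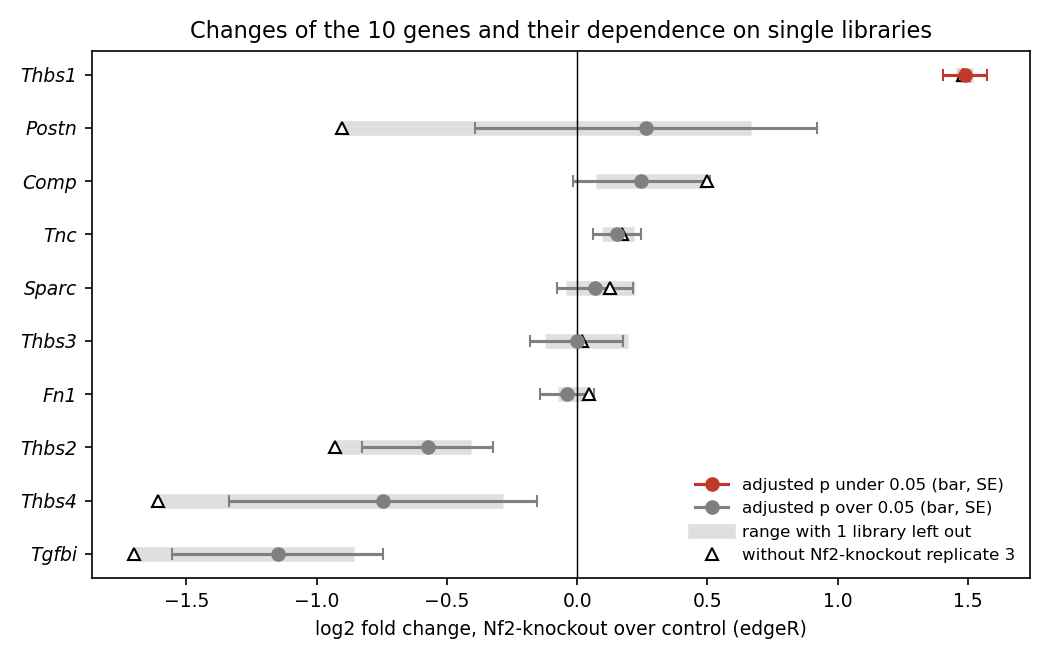
Log2 fold change of Nf2-knockout over control from edgeR (x axis) for each gene, with its SE as a bar, the range over the 6 fits that leave out 1 library as a pale band, and the fit without Nf2-knockout replicate 3 as a triangle. Thbs1 (1.49, red) passed the threshold with a band from 1.45 to 1.52, and Postn has the widest band, from −0.90 to 0.67.

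On the FPKM scale the order of levels in knockout libraries was Sparc, Fn1, Thbs1, Comp, Thbs2, Tnc, Postn, Thbs3, Thbs4 and Tgfbi. In control libraries it was the same except that Thbs4 stood above Thbs3. Neighbours in the order whose library values overlapped were Tnc and Postn, Thbs3 and Thbs4, and the scarcer of those with Tgfbi, in both groups. Within each library of both groups Thbs1 was above Comp. Across the knockout libraries their values did not overlap (380.7 ± 14.99 FPKM for Thbs1 and 140.3 ± 44.1 FPKM for Comp, SD, n = 3). Across the control libraries they overlapped (126.5 ± 4.78 FPKM for Thbs1 and 110.4 ± 21.8 FPKM for Comp, SD, n = 3). Among all 55401 genes ranked by mean FPKM, Thbs1 stood at rank 117 in knockout and rank 380 in control libraries. Thbs2 stood at rank 1123 in knockout and 749 in control libraries.

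Summed over the 10 genes, FPKM was 2166, 2172 and 2040.2 in knockout replicates 1 to 3, against 1552, 1685 and 1911 in control replicates 1 to 3. The groups did not overlap (exact two-sided permutation p = 0.1, the smallest possible). The log2 ratio of the group means was 0.309 for this sum, 0.176 for summed CPM and 0.829 without Fn1 and Sparc. Summed CPM counts long transcripts more, and it is TMM-scaled between libraries, whereas FPKM is scaled to depth alone. In limma on log2(FPKM + 1), median-of-ratios scaling between libraries also lowered log2 fold changes. They went from 1.58 to 1.5 for Thbs1, from 0.185 to 0.0988 for Sparc and from 0.0581 to −0.0276 for Fn1. The part of scaling in the summed FPKM difference was not tested. Without Thbs1 the sums were 1784, 1807 and 1645 FPKM in knockout and 1431, 1556 and 1782 FPKM in control libraries, and then the groups overlapped (exact two-sided permutation p = 0.2). Thbs1 made up 17.6%, 16.8% and 19.4% of the sum in knockout replicates 1 to 3, against 7.79%, 7.66% and 6.77% in control replicates 1 to 3.

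The libraries of the knockout group differed among themselves over 5 of the 10 genes. Knockout replicate 3 had 4.82 times the mean of replicates 1 and 2 for Postn on the FPKM scale, 3.53 times for Thbs4, 2.46 times for Tgfbi, 1.88 times for Thbs2 and 0.544 times for Comp. For Thbs1, Thbs3, Tnc, Sparc and Fn1 the same ratio lay between 0.859 and 1.06. The labels name no batch or date for these libraries.

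**Figure D3:**
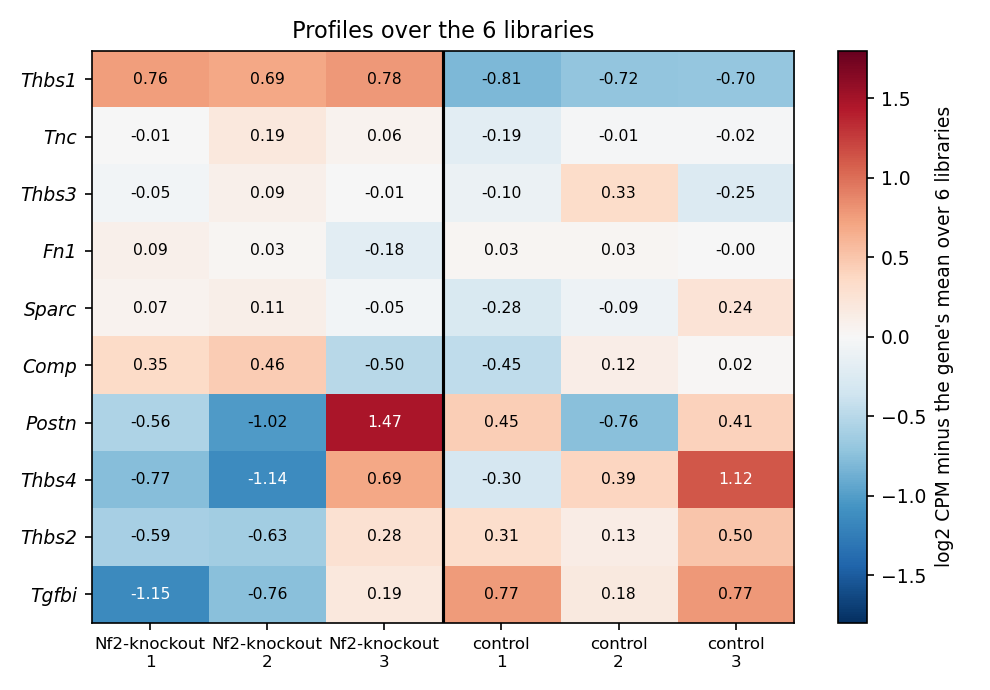
Log2 CPM of each gene minus its own mean over the 6 libraries (colour and printed value), with the 3 Nf2-knockout libraries left of the line and the 3 controls right of it. Thbs1 is high in all 3 knockout libraries (0.69 to 0.78) and low in all 3 controls (−0.81 to −0.70), while Postn, Thbs4, Thbs2 and Tgfbi are low in knockout replicates 1 and 2 and high in replicate 3.

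The summed level of chondrocyte markers ordered the libraries of each group as Comp did. The 14 markers (cartilage collagens, Acan, Sox9, matrilins and others) summed to 1314, 1426 and 757 CPM in knockout replicates 1 to 3, against 627, 934 and 878 CPM in control replicates 1 to 3. Comp had 509, 550.2 and 283 CPM in knockout replicates 1 to 3, against 292, 435 and 405 CPM in control replicates 1 to 3. Within each group the library with the highest marker sum had the highest Comp and the one with the lowest sum the lowest Comp. All 14 markers were detected, but some only at low levels. Acan averaged 1.02 FPKM in knockout and 1.47 FPKM in control libraries, and Chad 0.225 and 0.522 FPKM. Col2a1 and Col11a1 were the most abundant, so the sum follows mainly these. Singly the markers did not share a direction between groups: 1 rose (Col2a1) and 1 fell (Col9a2), against 9.29% of all tested genes called. Of the 14 log2 fold changes 9 were below 0, Acan (−0.63) and Sox9 (−0.36) among them, and the list median was −0.29, while that of Comp was 0.25. Col9a2 had an edgeR adjusted p = 0.0482 and passed in 1 of the 6 fits without 1 library. Col2a1 averaged 581 ± 223 CPM in knockout and 231 ± 50.7 CPM in control libraries (SD, n = 3 each), and its rise (edgeR adjusted p = 0.0446) passed among the 6 fits without 1 library only without knockout replicate 3 (0.0148, otherwise up to 0.129). What part this has in the Comp values was not tested.

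**Figure D4:**
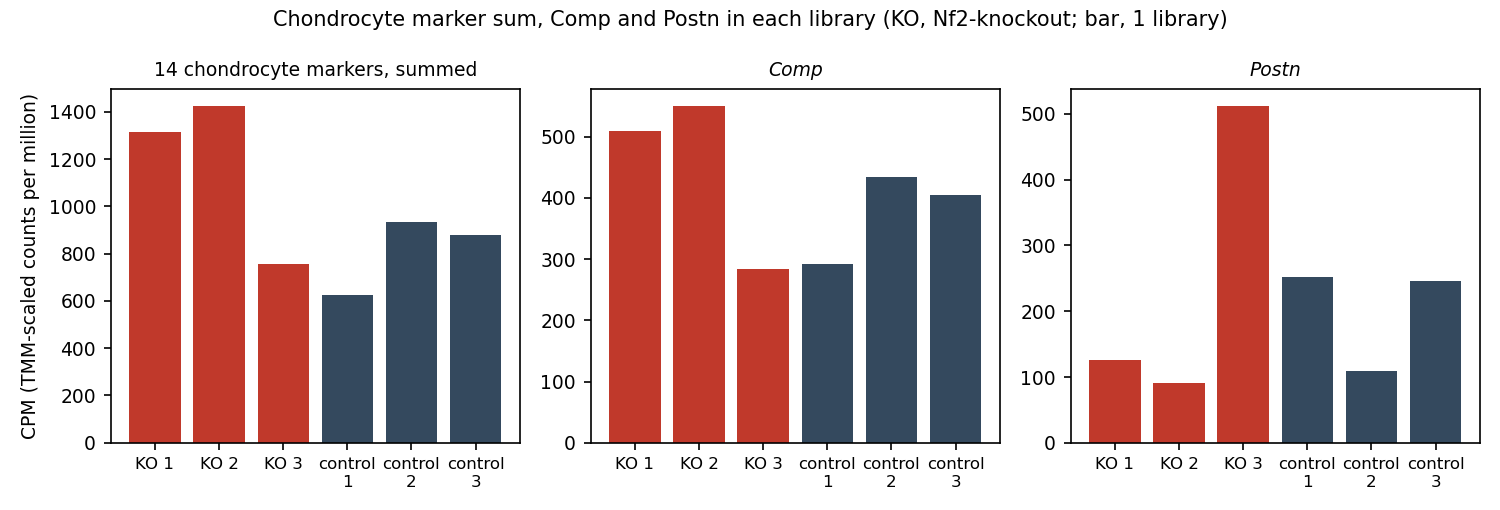
CPM (y axes, linear, from 0) summed over 14 chondrocyte markers, and of Comp and Postn, in each Nf2-knockout (KO, red) and control (dark) library, 1 bar per library. Comp is lowest in knockout replicate 3 (283 CPM) and control replicate 1 (292 CPM), the libraries with the lowest marker sums (757 and 627 CPM), whereas Postn is highest in knockout replicate 3 (512 CPM).

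The promoters of the 4 members at 1.88 times or more in knockout replicate 3 against the other knockouts are printed here because the fold changes of these genes moved most when that library was left out. Each is the 250 bases before the RefSeq transcription start, 5′ to 3′ on the gene's strand, and capitals mark matches to the motifs searched on both strands.
Thbs2, chr17:14694263-14694512, minus strand, GRCm38.p6: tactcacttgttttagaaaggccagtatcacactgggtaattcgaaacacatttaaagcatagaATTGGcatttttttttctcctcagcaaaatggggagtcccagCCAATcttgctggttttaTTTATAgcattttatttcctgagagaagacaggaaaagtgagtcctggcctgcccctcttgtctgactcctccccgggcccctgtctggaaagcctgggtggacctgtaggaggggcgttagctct
Thbs4, chr13:92794819-92795068, minus strand, GRCm38.p6: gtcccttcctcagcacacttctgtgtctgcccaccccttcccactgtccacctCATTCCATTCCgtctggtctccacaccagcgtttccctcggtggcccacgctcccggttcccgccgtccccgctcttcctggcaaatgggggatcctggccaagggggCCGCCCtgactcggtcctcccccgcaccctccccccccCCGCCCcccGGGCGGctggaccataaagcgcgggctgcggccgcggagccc
Postn, chr3:54360857-54361106, plus strand, GRCm38.p6: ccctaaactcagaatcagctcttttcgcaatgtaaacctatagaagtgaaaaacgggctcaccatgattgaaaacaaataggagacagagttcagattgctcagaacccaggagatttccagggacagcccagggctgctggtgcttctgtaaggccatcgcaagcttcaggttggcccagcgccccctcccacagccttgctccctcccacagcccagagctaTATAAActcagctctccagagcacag
Tgfbi, chr13:56609336-56609585, plus strand, GRCm38.p6: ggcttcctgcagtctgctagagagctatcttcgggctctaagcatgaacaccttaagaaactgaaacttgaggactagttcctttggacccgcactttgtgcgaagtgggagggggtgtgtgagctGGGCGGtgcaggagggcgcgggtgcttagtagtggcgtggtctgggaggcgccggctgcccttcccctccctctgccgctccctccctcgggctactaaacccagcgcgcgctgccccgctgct
RefSeq windows were held for 7 of the 10 genes, and Thbs1, Comp and Fn1 had none. The TEAD motif was read as GGAATG, and 12.6% of 32851 mouse windows of this length held it. The AP-1 motif was read as TGANTCA, held by 6.75% of windows. The GC box was read as GGGCGG, held by 32.7%, and the TATA box as TATAAA, held by 12.4%. The CCAAT box was read by its own letters, held by 33.8%. The Thbs4 window held 2 overlapping TEAD matches, 197 and 192 bases before the start counted to the first matching base, and 3 GC boxes. No match of one motif overlapped a match of another in these windows. The Postn window printed had a TATA box 26 bases before its start, and a second RefSeq window of Postn, chr3:54359017-54359266, held none of the motifs. Tgfbi had a GC box at 124, and Thbs2 a TATA match at 126 with CCAAT matches at 186 and 144. No motif was found in all 4 windows, and AP-1 letters were in none of the 9 member windows, of which Tnc and Postn have 2 each. A match is a stretch of letters and not evidence of binding.

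Cell surface receptors and binding partners of these proteins changed in both directions. Of 16 genes, all tested, 4 rose and 1 fell, against 9.29% of all tested genes called. The list median was −0.26, with −0.01 over all tested genes. Cd47, a receptor of thrombospondin 1, had 8.242, 10.02 and 9.224 FPKM in knockout replicates 1 to 3, against 15.21, 12.58 and 12.245 FPKM in control replicates 1 to 3, with a log2 fold change of −0.64 (SE 0.118, edgeR adjusted p = 0.0205). Every knockout value was below every control. The call was kept without knockout replicate 2 or control replicate 3 and lost without any 1 of the others (adjusted p up to 0.0889). Cd36, another thrombospondin receptor, did not pass (0.36, edgeR adjusted p = 0.395).

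The 4 rises were integrin subunits, out of 9 on the list. The other 5 did not pass, and their log2 fold changes were below 0, at −0.36 for Itgav, −0.78 for Itgb3, −0.14 for Itgb5, −0.52 for Itga4 and −0.34 for Itga9. Itga3, which pairs with β1 to bind laminins and thrombospondin 1, stood at 29.5, 28.5 and 20.3 FPKM in knockout replicates 1 to 3, against 6.04, 8.67 and 6.72 FPKM in control replicates 1 to 3. All knockout libraries were above all controls, with a log2 fold change of 1.77 (SE 0.195, edgeR adjusted p = 0.00464), and Itga3 was called in all 6 fits without 1 library. Itga8, whose β1 pair binds fibronectin and tenascin C, rose by 1.71 on the log2 scale (edgeR adjusted p = 0.0205, up to 0.0647 without 1 library). It was called in 2 of the 6 fits without 1 library. Itgb1, the shared β1 subunit, averaged 347 ± 13.8 FPKM in knockout and 240.0 ± 10.7 FPKM in control libraries (SD, n = 3 each). Its log2 fold change was 0.43 (edgeR adjusted p = 0.0252, up to 0.0901 without 1 library), called in 2 of those 6 fits. Itga5, the fibronectin receptor subunit, had a log2 fold change of 0.44 (edgeR adjusted p = 0.0398), which was lost in each of the 6 fits without 1 library (0.0572 to 0.134). The number of the 16 called fell to 1, Itga3, without knockout replicate 1 or 3, without control replicate 1, or with the replicate number as a block, to 2 without control replicate 2 and to 3 without control replicate 3.

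**Figure D5:**
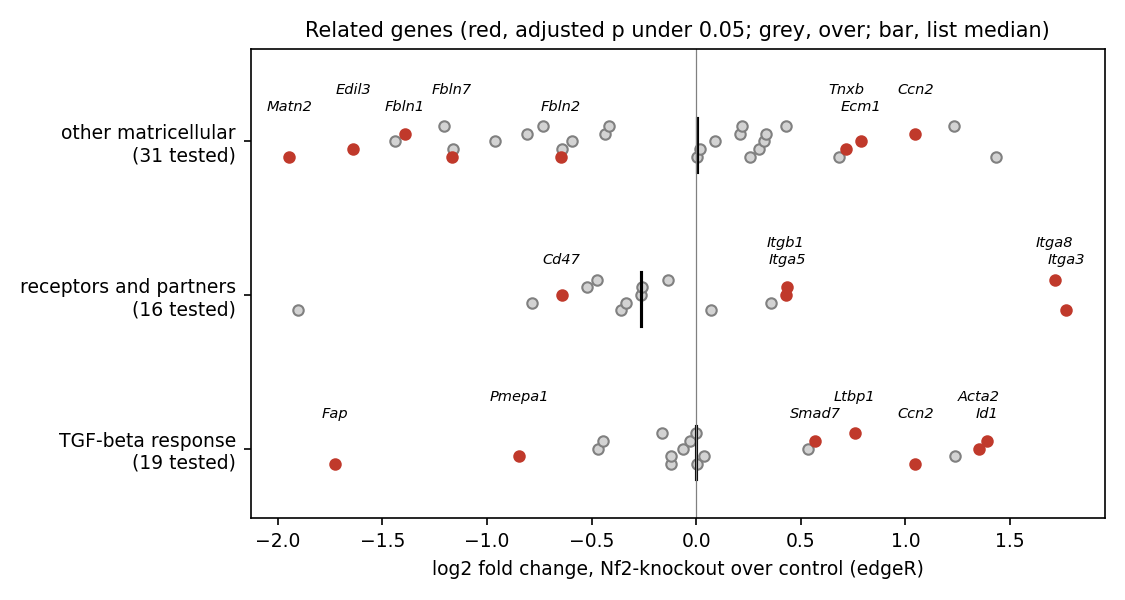
Log2 fold change of Nf2-knockout over control (x axis) of related genes in 3 lists, 1 point per tested gene, red where edgeR's adjusted p was under 0.05, with the list median as a black bar. Of other matricellular genes 3 rose and 5 fell, of receptors and partners 4 rose and 1 fell, and of TGF-β response genes 5 rose and 2 fell.

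Other matricellular and matrix glycoprotein genes also split. Of 32 genes 31 were tested, and 3 rose and 5 fell, or 8 against a background of 9.29% of all tested genes. Their median log2 fold change was 0.01. Ccn2, a matricellular protein and widely used YAP target, had 409, 377 and 354 FPKM in knockout replicates 1 to 3, against 172, 181 and 161 FPKM in control replicates 1 to 3. All knockouts were above all controls (log2 fold change 1.05, SE 0.0954, edgeR adjusted p = 0.00332), by a smaller factor than Thbs1. The other rises were Ecm1, a secreted glycoprotein that binds perlecan and matrix metalloproteinase 9 (0.79, edgeR adjusted p = 0.0117), and Tnxb, tenascin X (0.72, edgeR adjusted p = 0.0189, and 0.0245 to 0.0709 with 1 library left out). Tnxb was called in 2 of the 6 fits without 1 library.

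Among the falls, Matn2, the adaptor protein matrilin 2, averaged 12.5 ± 4.09 FPKM in knockout and 45.1 ± 7.65 FPKM in control libraries (SD, n = 3 each), and its log2 fold change was −1.94 (edgeR adjusted p = 0.00795). Edil3, a secreted integrin αvβ3 ligand, fell by 1.64 (edgeR adjusted p = 0.00807). The other falls were fibulins, which link elastic fibres and basement membranes. Fbln2 fell by 0.65 on the log2 scale (edgeR adjusted p = 0.0124), a call lost without knockout replicate 1 (0.0644). Fbln1 and Fbln7, named after their values were seen, fell by 1.39 (edgeR adjusted p = 0.0269) and by 1.17 (edgeR adjusted p = 0.0224). Fbln1 lost its call without knockout replicate 1 or 2 or control replicate 1 (up to 0.103), and Fbln7 without knockout replicate 1 or 3 or control replicate 2 or 3 (up to 0.0932). Fbln5, the remaining fibulin of the list, did not pass (0.21, edgeR adjusted p = 0.260). Without knockout replicate 1 the list had 3 rises and 2 falls.

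Genes known to respond to TGF-β, which thrombospondin 1 can activate, showed no common direction. Of 19 tested genes 5 rose and 2 fell, with a median of 0.00, against 9.29% of all tested genes called. The rises included Ccn2, described above, and Ltbp1, a latent TGF-β binding protein gene (0.76, edgeR adjusted p = 0.0103). The inhibitory SMAD gene Smad7 also rose (0.57, edgeR adjusted p = 0.0183, up to 0.0677 with 1 library left out), and was called in 2 of those 6 fits. Id1, a helix-loop-helix inhibitor that is also a BMP target, rose by 1.39 (edgeR adjusted p = 0.0207), and lost its call without knockout replicate 1 or control replicate 1 or 2 (up to 0.0700). Acta2, smooth muscle actin, rose by 1.35 (edgeR adjusted p = 0.0264), and lost its call without any 1 control (up to 0.0972). The falls were Pmepa1, a feedback inhibitor of TGF-β signalling (−0.85, edgeR adjusted p = 0.00394), and the fibroblast protease gene Fap. Fap, named after its values were seen, fell by 1.73 (edgeR adjusted p = 0.0297) and kept its call only without knockout replicate 2 or 3 (otherwise up to 0.0918). The list had 4 calls without knockout replicate 1 or control replicate 1 and 3 without control replicate 2.

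The genes whose profile over the 6 libraries was most like that of Thbs1 were Aldh1a7 and Fhl1. Likeness was the root mean square difference between log2 CPM profiles, each centred on its own mean, over 9223 genes with a mean of at least 10 CPM, and it was 0.110 for Aldh1a7 and 0.117 for Fhl1. Fhl1, a LIM domain protein, had 69.9, 70.8 and 62.6 FPKM in knockout replicates 1 to 3, against 24.4, 22.2 and 22.2 FPKM in control replicates 1 to 3. Aldh1a7, an aldehyde dehydrogenase gene with a close paralogue in Aldh1a1 whose reads it may share, had 165.3, 125.9 and 164.3 FPKM in knockout and 46.0, 50.8 and 54.3 FPKM in control libraries. Their log2 fold changes were 1.49 for Aldh1a7 and 1.46 for Fhl1. A rise near that of Thbs1 was fixed by choosing them for likeness over these same libraries. Among the 10 genes the closest profiles were Tnc and Sparc, at 0.134. By this measure any genes that vary little come out close, and both changed little (log2 fold changes 0.15 and 0.07). Among Thbs2, Thbs4, Postn and Tgfbi the closest were Thbs2 and Tgfbi, at 0.321.

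Markers of some other cell types also moved. Calls were in the macrophage, pericyte and endothelial lists, and none in the platelet, tendon, osteoblast and skeletal muscle lists. Macrophages can make Thbs1, Tgfbi and Fn1, and platelets store Thbs1. The 13 macrophage and myeloid markers summed to 113, 87.0 and 48.8 CPM in knockout replicates 1 to 3, against 160.2, 429 and 213 CPM in control replicates 1 to 3. Of these 13 genes 5 fell and 0 rose, against 5.18% of all tested genes called lower, with Lyz2 and Cd68 the most abundant and none at 0 in every library. These calls were fragile. With 1 library left out, Csf1r passed in 2 of the 6 fits, Mrc1 and C1qb in 1 each, and Cd68 and C1qa in 0. Thbs1 was higher in the group where these markers were lower. Tgfbi was highest among knockouts in the library with the lowest marker sum and lowest among controls in the library with the highest. The part of macrophages in the Thbs1 and Tgfbi values was not tested. The 6 platelet and megakaryocyte markers, led by Itga2b and Gp1ba, summed to between 3.01 and 4.34 CPM in knockout and between 3.51 and 3.90 CPM in control libraries, with no call among the 4 tested.

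Pericyte and smooth muscle markers, 10 genes led by Acta2 and Pdgfrb, summed to 614, 584 and 913 CPM in knockout replicates 1 to 3, against 460.5, 423 and 410.1 CPM in control replicates 1 to 3. Of these genes 3 rose (Cspg4, Rgs5 and Acta2) and 0 fell, against 4.11% of all tested genes called higher. The rest did not pass and split in direction. Log2 fold changes were below 0 for Pdgfrb (−0.13), Des (−0.39), Myh11 (−0.33) and Cnn1 (−0.07). They were above 0 for Mcam (1.03), Notch3 (0.61) and Kcnj8 (0.46). The list median was 0.53. Kcnj8 had at most 0.337 CPM, and Myh11 at most 2.92 CPM in knockout and 4.20 CPM in control libraries. Thbs1 in knockout replicate 3, where the sum was highest, was 1.06 times its mean in the other knockouts. The part of these cells in the Thbs1 rise was not tested. The 5 tendon markers, led by Fmod and Scx, summed to between 219 and 239 CPM in knockout and between 169.8 and 206 CPM in control libraries, with no call. Osteoblast markers, led by Ibsp and Bglap2, summed to between 17.0 and 30.2 CPM in knockout and between 20.5 and 29.5 CPM in control libraries, with no call among 7 tested. Endothelial markers, led by Kdr and Egfl7, summed to at most 11.5 CPM in knockout and 7.04 CPM in control libraries. Of 7 tested, 1 rose (Kdr) and 0 fell, against 4.11% of all tested genes called higher. The list median was −0.12, with 4 of the 7 log2 fold changes below 0. Kdr averaged 4.49 CPM in knockout and 1.75 CPM in control libraries, and passed in 2 of the 6 fits without 1 library. Skeletal muscle markers, led by Acta1 and Mylpf, summed to at most 4.87 CPM in either group, with Myod1 at 0 in every library.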

How the data were processed

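The authors deposited 1 table with, per the file headers, a read count and an FPKM value per gene and library. The deposited counts are whole numbers without normalisation. The deposited FPKM were normalised by the authors for length and depth, and a count of 0 is written as 0.0001. Without stating roles, the submitters' processing notes list edgeR, StringTie 1.3.4d, HISAT2 2.0.4 and cutadapt 1.9. How counts were made and the genome build are not given in the sources used here. Positions equalled those of GENCODE M21 (GRCm38) for 86.9% of 55141 genes and for 8 of the 10 members, but not for Tnc and Fn1, whose positions are not printed.

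The main test was edgeR 4.0.16 in R 4.3.3 (filterByExpr, TMM, glmQLFit and glmQLFTest on group), two-sided, over 18218 genes. Each SE was taken as |log2 fold change| divided by √F. CPM are TMM-scaled. Ratios and sums of FPKM were compared by exact permutation. Methods were tested on simulated counts. The alternatives were DESeq2 1.42.0, its size factors, no filter, limma 3.58.1 on log2(FPKM + 1) or + 0.1 (mean FPKM at least 0.5) and its variants, a replicate block and leaving out each library.

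The members and lists were chosen with earlier results of these data known. Named were all members, Nf2, up to 6 called genes per list by p-value, the 2 profiles most like each called member and the 2 most abundant markers per cell type. Fbln1, Fbln7, Fap, genes named beside these that did not pass, and markers beyond the most abundant were added after their values were seen.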

Additional observations from a re-analysis of the deposited data

How the results depend on the processing

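Thbs1 kept its direction and its call in all 14 alternatives. With 1 library left out, the number of called members was between 1 and 3, the 3 being Thbs1 higher and Thbs2 and Tgfbi lower without Nf2-knockout replicate 3, and DESeq2 called 2. The other matricellular list then had 5 to 8 calls, receptors and partners 1 to 4 and TGF-β response genes 3 to 7, against 8, 5 and 7 from all libraries. Receptors and partners had 3 calls in limma on FPKM with no filter and 1 with the replicate block. Over all genes there were 1693 calls (749 higher, 944 lower), 2593 in DESeq2, 1062 in limma on FPKM with no filter, 923 with the replicate block and 629 to 1186 with 1 library left out. Limma on log2(FPKM + 1) gave 1053 higher and 615 lower. The difference in log2 Thbs1 to Thbs2 ratio lay between 1.97 and 2.40 with 1 library left out, and the log2 ratio of summed FPKM (0.309) between 0.242 and 0.393. That ratio was 0.176 on summed CPM and 0.829 without Fn1 and Sparc. Same-numbered libraries shared little deviation over all tested genes: their deviations from their group means correlated at −0.0895, 0.0296 and 0.0234. Such values cannot settle whether the libraries were paired, because a shared origin could affect few genes. The replicate block moved no member's call.

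Signs that turned were all of genes that did not pass. Thbs3 was −0.00 in all libraries and 0.0171 in DESeq2, 0.0145 with its size factors, 0.0031 with no filter, 0.0796 in limma on log2(FPKM + 1) with or without a filter, 0.115 with a pseudocount of 0.1, 0.0201 with median-of-ratios scaling, 0.0194 with the replicate block and between −0.123 and 0.194 with 1 library left out. Postn turned to −0.0399 with median-of-ratios scaling of FPKM and −0.0773 with the replicate block, and lay between −0.901 and 0.666 with 1 library left out. Sparc lay between −0.0427 and 0.224 and Fn1 between −0.0751 and 0.0451 with 1 library left out, and Fn1 was 0.0581 to 0.0582 in limma on unscaled FPKM. The cause of these turns was not tested. No test of single outlying libraries was run in these groups of 3. The lowest counts were 115 for Tgfbi and 157 for Thbs4, and how much of their SE comes from depth was not tested.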
